A study of Mus musculus with 6 samples.

Results

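The genes described here are those that mark the oocyte and its maternal stores, together with the Nlrp and Prame-like families, many of whose members are known from the germ line and the early embryo. They were chosen by symbol, as a set proposed with earlier results of these data known: every non-control probe whose name begins with Pramel, Pramef, Nalp, Nlrp, Ooep, Oosp, Khdc1, Zar1, H1foo, Bmp15, Gdf9, Figla, Nobox or Oog, or is Zp1, Zp2 or Zp3, or whose RefSeq accession carries such a symbol today. The rule found 53 of the 41174 probes on the array, for 42 of the 28786 gene names, of which 26 were bright enough to be tested, as were 20689 genes in all. No probe of Zp1 or Khdc1b was among them.

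Total RNA was compared on 1-colour Agilent arrays between 3 samples of mouse embryonic stem (ES) cells, which derive from the inner cell mass, and 3 of epiblast stem cells (EpiSC), which derive from the epiblast after implantation. The ES samples, called mES here, were the lines ESF122 (replicate 1), ESF175/1 (replicate 2) and ESF58 (replicate 3, numbered differently in separate labels), and the EpiSC samples were EpiSC-5 (replicate 1) and EpiSC-7 at passages 20 (replicate 2) and 25 (replicate 3), so that 3 samples came from 2 lines. All cells grew over irradiated embryonic fibroblasts in DMEM containing KSR, BME, NEAA and L-glutamine, to which LIF was added for mES and FGF2 for EpiSC. The labels give no strain, sex or genetic change, and p-values speak only of the spread among these 6 samples.

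Oocytes store RNAs and proteins that carry the embryo until its own genome is switched on. Ooep, Nlrp5, Tle6 and Khdc3 encode subunits of the subcortical maternal complex, a protein assembly beneath the surface of the egg; Zp2 and Zp3 encode glycoproteins of the egg coat, and Bmp15 and Gdf9 growth factors that the oocyte sends to the cells around it. Nlrp proteins carry a nucleotide-binding domain, and a few of them start inflammasomes in immune and epithelial cells, while others are known mainly from oocytes. Prame-like proteins are leucine-rich repeat proteins encoded by clustered, recently multiplied genes, and some act as receptors that bring targets to CUL2 ubiquitin ligases.

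The region around the start of 5 of these genes is shown because their levels span the pattern described below: Ooep, Pramel13, Nlrp4f and Zp3 were lower in EpiSC, and Nlrp2 did not pass the test. Each runs 5′ to 3′ on the gene's strand from 250 bases before to 50 bases after the start, as RefSeq gives it on GRCm38.p6, with every CpG in capitals. The positions are chr9:78378539-78378838 (minus strand) for Ooep, chr4:144408415-144408714 (minus) for Pramel13, chr13:65205667-65205966 (minus) for Nlrp4f, chr5:135979855-135980154 (plus) for Zp3 and chr7:5350986-5351285 (minus) for Nlrp2.
Ooep: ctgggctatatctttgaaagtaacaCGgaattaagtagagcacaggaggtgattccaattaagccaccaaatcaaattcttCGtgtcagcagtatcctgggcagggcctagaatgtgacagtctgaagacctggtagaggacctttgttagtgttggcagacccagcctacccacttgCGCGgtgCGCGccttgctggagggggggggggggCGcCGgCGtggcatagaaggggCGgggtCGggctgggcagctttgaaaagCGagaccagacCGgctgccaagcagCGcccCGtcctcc
Pramel13: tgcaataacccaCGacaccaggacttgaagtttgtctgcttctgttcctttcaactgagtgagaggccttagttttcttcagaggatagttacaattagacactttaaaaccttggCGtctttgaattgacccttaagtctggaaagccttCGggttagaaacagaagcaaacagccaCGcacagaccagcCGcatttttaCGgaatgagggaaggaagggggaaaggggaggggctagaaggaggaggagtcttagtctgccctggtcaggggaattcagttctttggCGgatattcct
Nlrp4f: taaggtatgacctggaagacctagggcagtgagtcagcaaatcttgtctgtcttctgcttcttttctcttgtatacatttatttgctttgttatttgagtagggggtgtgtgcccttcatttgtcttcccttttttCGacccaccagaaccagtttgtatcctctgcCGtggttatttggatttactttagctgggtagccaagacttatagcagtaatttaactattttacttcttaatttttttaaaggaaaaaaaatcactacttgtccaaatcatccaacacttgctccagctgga
Zp3: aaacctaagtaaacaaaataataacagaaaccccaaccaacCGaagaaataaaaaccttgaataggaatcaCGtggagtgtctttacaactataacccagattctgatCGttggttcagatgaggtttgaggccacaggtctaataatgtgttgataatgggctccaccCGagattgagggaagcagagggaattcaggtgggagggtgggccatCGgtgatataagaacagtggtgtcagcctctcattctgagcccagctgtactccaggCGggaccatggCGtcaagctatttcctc
Nlrp2: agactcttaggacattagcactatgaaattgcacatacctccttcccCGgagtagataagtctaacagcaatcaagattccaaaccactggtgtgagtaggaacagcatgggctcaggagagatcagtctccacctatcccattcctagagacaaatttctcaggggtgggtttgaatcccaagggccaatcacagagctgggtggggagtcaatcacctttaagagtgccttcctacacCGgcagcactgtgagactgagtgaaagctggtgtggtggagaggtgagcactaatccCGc

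Of the 26 tested genes, 12 were lower in EpiSC than in mES, 0 were higher and 14 did not pass the threshold (limma, adjusted p under 0.05 over all 20689 genes). Over all genes tested, 14.5% were lower and 11.8% higher by the same rule. At an unadjusted p under 0.05, 1 member was higher (H1f8) and 14 were lower. The share of all genes at that looser cut was not counted, and the shares above are no baseline for it. The median log2 fold change, EpiSC minus mES, was -0.94 over the 26 members and -0.11 over all genes. A decrease of at least 8-fold that passed the threshold was found by measured fold in 10 of the 26 members and in 2.03% of all genes, though of the 10, Pramel4 has a bound of 2.81-fold only. The 3 mES values and the 3 EpiSC values did not overlap in 16 of the 26 members, against 48.5% of all genes. EpiSC was the higher group in H1f8 and Nlrp2 and the lower one in the rest of the 16. In 28.6% of all genes the groups did not overlap and EpiSC was the lower. How a gene came to be tested bears on these counts. A probe entered when all 3 arrays of a group read it as well above background, and 11 members entered through the mES arrays alone, of which 9 were lower, so that for them the rule of entry already favoured a higher mES level. Another 11 entered through both groups, with 3 lower (Gdf9, Nlrp4c and Zp3). When only probes above background on all 6 arrays were fitted, 16.1% of all genes were lower. The last 4 members entered through the EpiSC arrays alone (Nlrp10, Nlrp9c, Oog1 and Pramel27), with 0 past the threshold.

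Levels are given as the log2 signal minus the 75th percentile of the log2 signals on that array, so that 0 stands for that percentile, and always in the order of replicates 1, 2 and 3. An error after a log2 fold change is limma's standard error with n = 3 per group. Where none of a gene's probes was well above background on any EpiSC array, the fold is a lower bound, computed from the dimmest signals that those arrays called well above background, and the log2 fold change beside it is the measured one. Brightness differs between probes for reasons other than RNA amount, so levels are compared between samples of 1 probe and not between genes. In RNA from whole cultures, fewer cells expressing a gene and less RNA in each cell cannot be told apart.

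**Figure D1:**
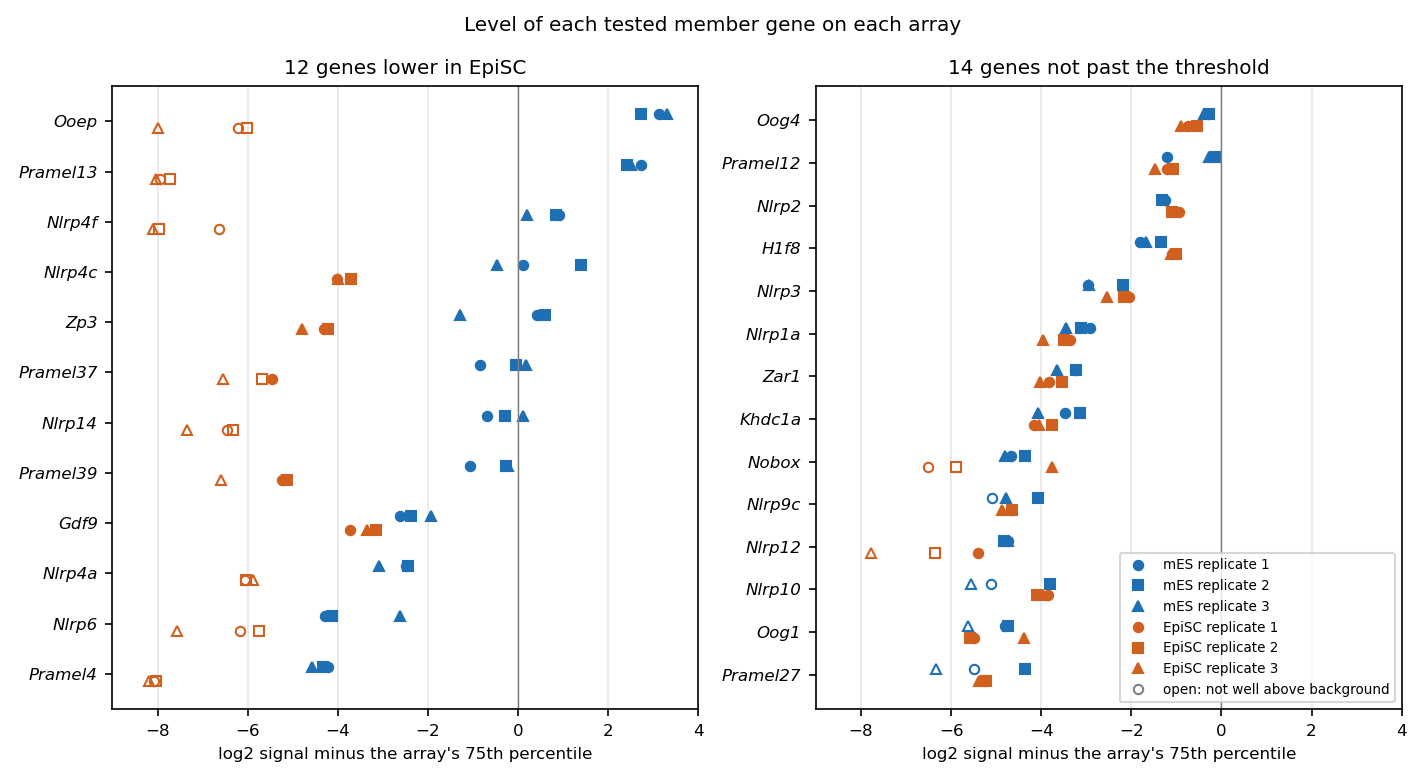
Level of each of the 26 tested genes on each array, as log2 signal minus the array's 75th percentile (horizontal axis), with mES in blue, EpiSC in orange, a marker shape for each replicate and open markers where the array was not well above background. In the left panel (12 genes lower in EpiSC) the colours stand apart for every gene, with Ooep near 3 in mES and at or under -6.01 in EpiSC, and in the right panel (14 genes not past the threshold) most lie close together.

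Ooep was detected in every mES line. Its levels were 3.12, 2.74 and 3.30 in mES and -6.21, -6.01 and -8.00 in EpiSC, where no array was well above background. The 3 mES lines lay close together and far above every EpiSC sample. Ooep was thus at least 483-fold lower in EpiSC (log2 fold change -9.80 ± 0.53, limma adjusted p = 0.000204). Nlrp5, also called Mater, is the partner of Ooep in that complex and was not tested, because its probe was above background on mES replicates 1 and 2 and EpiSC replicate 1 only. Its levels were -5.05, -5.26 and -5.78 in mES and -5.49, -5.77 and -6.35 in EpiSC, and the groups overlapped. Khdc1a (listed as Ndg1), a KH-domain gene like Ooep, read -3.48, -3.13 and -4.07 in mES and -4.17, -3.75 and -4.04 in EpiSC. These groups overlapped too, and the log2 fold change of -0.43 ± 0.28 did not pass the threshold (limma adjusted p = 0.283). The other probe of Khdc1a was not above background on any array.

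The other genes of the complex, which the naming rule does not take, did not all move with Ooep. Khdc3 fell by 7.61 ± 0.42 on the log2 scale, or 196-fold (limma adjusted p = 0.000223). The value was -0.47 ± 0.42 for Tle6 (adjusted p = 0.433). Padi6, a peptidylarginine deiminase gene of the oocyte cytoplasm, gave -1.33 ± 0.48 (adjusted p = 0.0863). Padi6 read -2.30, -2.32 and -4.05 in mES and -4.27, -4.11 and -4.27 in EpiSC, without overlap, and passed as lower with normexp background correction. In a wider list of 24 maternal and oocyte genes outside the rule, 16 were tested, 8 were lower and 1 was higher, and the median of the 16 was -1.45 (log2 fold change). Dppa3 (also called Stella), a maternal protein that shields DNA methylation marks in the zygote, was at least 158-fold lower (adjusted p = 0.00306), and the germ-line RNA helicase gene Ddx4 at least 137-fold lower (adjusted p = 0.00012). Kitl, the ligand of the Kit receptor, was the 1 gene that rose (log2 fold change 1.33 ± 0.33, adjusted p = 0.0306). The list shares Tcl1 and Dppa3 with the naive ES markers and Ddx4 and Dazl with the germ cell markers, so it does not describe oocytes alone.

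The Nlrp genes known from reproduction numbered 10, of which 6 were tested and 4 were lower (Nlrp4f, Nlrp14, Nlrp4c and Nlrp4a). Over all genes tested, 14.5% were lower. The 6 had a median log2 fold change of -3.79, which is -3.72 if genes below background are set to their bounds. Of these 6, Nlrp4f, Nlrp14 and Nlrp4a entered through the mES arrays alone, so the rule of entry favoured a low median. Nlrp4f, an Nlrp4 copy known from mouse oocytes and cleavage embryos, read 0.92, 0.84 and 0.21 in mES and -6.64, -7.97 and -8.11 in EpiSC. It was above background in every mES line and in no EpiSC sample, and was at least 91.7-fold lower (log2 fold change -8.23 ± 0.43, limma adjusted p = 0.000178). Nlrp14, known from oocytes and from developing sperm, read -0.68, -0.28 and 0.11 in mES and -6.45, -6.32 and -7.34 in EpiSC. The groups again stood apart, and Nlrp14 was at least 47.8-fold lower (log2 fold change -6.42 ± 0.34, adjusted p = 0.000186).

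Nlrp4c remained detectable in EpiSC. Its levels were 0.12, 1.41 and -0.47 in mES and -4.01, -3.70 and -4.0 in EpiSC, with all 6 arrays above background. The mES lines differed among themselves, replicate 2 being the highest, while the EpiSC samples lay close together, and the difference came to 19.1-fold (log2 fold change -4.25 ± 0.47, limma adjusted p = 0.00228). Nlrp4a read -2.48, -2.44 and -3.08 in mES and -6.06, -6.03 and -5.89 in EpiSC, where it was not above background, and was at least 9.06-fold lower (log2 fold change -3.33 ± 0.22, adjusted p = 0.000399). The other probe of Nlrp4a gave a log2 fold change of -3.02.

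Nlrp2, a maternal-effect gene in the mouse, behaved otherwise. It read -1.25, -1.33 and -1.30 in mES and -0.95, -1.10 and -1.08 in EpiSC, above background throughout. Every EpiSC value was above every mES value, but the log2 fold change of 0.25 ± 0.15 did not pass the threshold (limma adjusted p = 0.249). Nlrp9c was near its detection limit and gave -0.07 ± 0.28 (adjusted p = 0.865), and its other probe was not above background on any array. Nlrp4b and Nlrp9b were not above background on any array, and Nlrp9a was above it on EpiSC replicate 3 only. The Nlrp4 copies and the Nlrp9 copies are close relatives, and the probe sequences were not used here, so how far a probe reads its relatives was not tested.

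Among the 6 genes for secreted oocyte proteins and the egg coat, Zp3 and Gdf9 were tested, and both were lower in EpiSC. Over all genes tested, 14.5% were lower. Zp3, the egg coat glycoprotein known for sperm binding, read 0.42, 0.59 and -1.28 in mES and -4.31, -4.21 and -4.80 in EpiSC. All 6 arrays were above background, and mES replicate 3 lay well under the other 2 lines but above every EpiSC sample. Zp3 was 20.4-fold lower (log2 fold change -4.35 ± 0.51, limma adjusted p = 0.00283). By its other probe the change was -5.22 (adjusted p = 0.00238). Gdf9, the oocyte growth factor, read -2.61, -2.38 and -1.93 in mES and -3.73, -3.15 and -3.35 in EpiSC. The groups did not overlap, but the difference was small, 2.15-fold (log2 fold change -1.11 ± 0.25, adjusted p = 0.0225), and did not pass in 5 of 20 alternative fits.

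Zp2, Bmp15, Oosp1 and Oosp3 were not above background on any array of either group. Zp2, the other zona gene, read -7.21, -5.90 and -7.06 in mES and -7.96, -7.67 and -7.86 in EpiSC by 1 probe, and its other probe gave the same picture. Bmp15, the partner of Gdf9, read -7.49, -7.59 and -7.30 in mES and -8.13, -8.03 and -8.19 in EpiSC. Oosp1, an oocyte-secreted protein gene, read -5.14, -7.14 and -6.03 in mES and -5.62, -7.41 and -7.74 in EpiSC by its brighter probe. The offset between the groups in such dim probes is no measured difference. The scaled floor of the arrays is lower in EpiSC, the lowest signal well above background being -5.38 to -5.04 in mES and -5.94 to -5.80 in EpiSC. Probes that never rose above background were therefore given no fold.

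The nuclear and RNA-binding regulators of the oocyte showed no call in either direction among the 3 tested. Nobox, a homeobox regulator of oocyte genes, read -4.68, -4.37 and -4.81 in mES and -6.51, -5.90 and -3.75 in EpiSC. EpiSC replicate 3 lay above all mES lines and the other 2 below them, and the log2 fold change was -0.77 ± 0.68 (limma adjusted p = 0.428). Without EpiSC replicate 3 it was -1.58 and passed (adjusted p = 0.0235), at slide position 4 only it was -1.68 (adjusted p = 0.0391), and without EpiSC replicate 1 it was -0.205. Zar1, an RNA-binding protein of the egg, read -3.24, -3.23 and -3.65 in mES and -3.83, -3.55 and -4.02 in EpiSC, a change of -0.42 ± 0.21 (adjusted p = 0.178) with overlapping groups. H1f8 (listed as H1foo), the oocyte linker histone, read -1.80, -1.35 and -1.67 in mES and -1.09, -1.00 and -1.11 in EpiSC. The EpiSC values were all higher, by 0.54 ± 0.18 on the log2 scale, which missed the threshold (adjusted p = 0.0694). Figla, the helix-loop-helix activator of the zona genes, was above background on mES replicate 1 alone and was not tested, with -4.27, -5.28 and -6.87 in mES and -8.04, -7.91 and -8.10 in EpiSC.

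**Figure D2:**
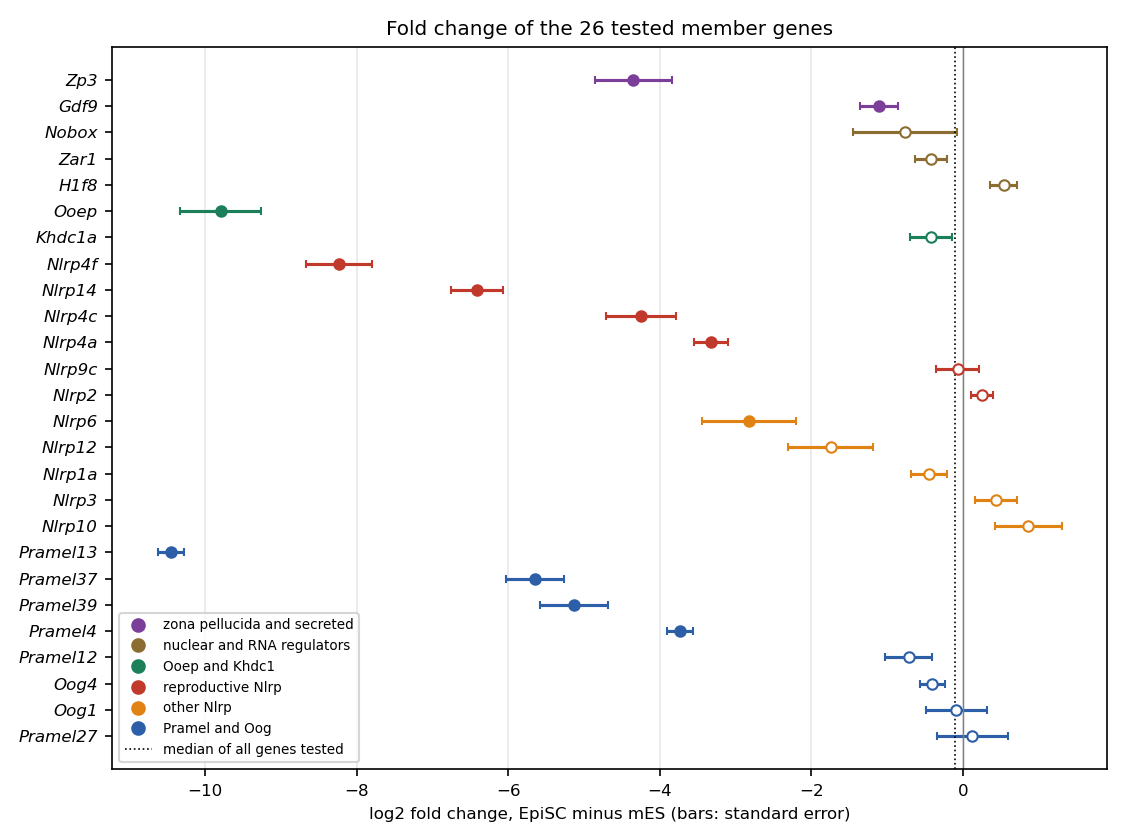
Log2 fold change, EpiSC minus mES (horizontal axis; bars are limma's standard errors, n = 3 per group), of the 26 tested genes, coloured by role, with filled points for the genes past the threshold and a dotted line at the median of all genes. The filled points run from -10.45 for Pramel13 to -1.11 for Gdf9, and no gene to the right of 0 is filled.

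Of the 15 Prame-like and Oog genes, 8 were tested and 4 were lower in EpiSC. Over all genes tested, 14.5% were lower. The 8 had a median of -2.23 (log2 fold change), which is -1.10 if genes below background are set to their bounds. The 4 lower genes (Pramel13, Pramel4, Pramel37 and Pramel39) entered through the mES arrays alone, so the rule of entry favoured a low median here too. Pramel13 (listed as Pramef12) read 2.73, 2.41 and 2.52 in mES and -7.94, -7.72 and -8.03 in EpiSC. The mES lines lay close together and no EpiSC sample was above background, so that the gene was at least 342-fold lower (log2 fold change -10.45 ± 0.18, limma adjusted p = 4.37e-06). Pramel4 read -4.22, -4.32 and -4.58 in mES and -8.08, -8.04 and -8.20 in EpiSC. It lay little above the detection limit in mES and was at least 2.81-fold lower, although the measured log2 fold change was -3.74 ± 0.17 (adjusted p = 0.00012).

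Pramel37 and Pramel39, from the same cluster of Prame-like genes on chromosome 5, were both lower in EpiSC. Pramel37 (listed as BC061212) read -0.85, -0.04 and 0.17 in mES and -5.46, -5.69 and -6.54 in EpiSC, with 1 EpiSC array above background, and was 50.3-fold lower (log2 fold change -5.65 ± 0.38, limma adjusted p = 0.000446). Pramel39 (listed as A430089I19Rik) read -1.07, -0.27 and -0.22 in mES and -5.23, -5.13 and -6.59 in EpiSC, with 2 EpiSC arrays above background, and was 35.1-fold lower (log2 fold change -5.13 ± 0.45, adjusted p = 0.0011). Both folds rest in part on EpiSC signals that were not above background. With normexp background correction, which added an offset of 50 to each signal, the log2 fold changes were -3.25 for Pramel37 and -2.98 for Pramel39. In both genes mES replicate 1 was the lowest of its group and EpiSC replicate 3 the lowest of all samples. The cluster also holds Pramel36, Pramel38, Pramel40 and Pramel41, and whether their probes read those copies as well was not tested.

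The remaining Prame-like genes differed less between the groups. Oog4 read -0.30, -0.28 and -0.38 in mES and -0.74, -0.54 and -0.89 in EpiSC by its brighter probe. The groups did not overlap, yet the log2 fold change of -0.40 ± 0.17 did not pass (limma adjusted p = 0.118). The other probe of Oog4 was above background on EpiSC replicate 1 only. Pramel12 read -1.20, -0.14 and -0.28 in mES and -1.21, -1.08 and -1.47 in EpiSC, with mES replicate 1 inside the EpiSC range, and gave -0.72 ± 0.31 (adjusted p = 0.133). Oog1, an oocyte gene, read -4.80, -4.73 and -5.63 in mES and -5.49, -5.57 and -4.39 in EpiSC and gave -0.09 ± 0.40 (adjusted p = 0.88). Pramel27 gave 0.12 ± 0.47 (adjusted p = 0.866). Both were near the detection limit, with overlapping groups.

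Pramel7, known in mouse naive ES cells and the inner cell mass as a CUL2 receptor that leads to loss of Uhrf1 and of DNA methylation, was above background on mES replicates 2 and 3 and on no other array. It read -7.08, -4.10 and -4.38 in mES and -7.83, -7.77 and -7.94 in EpiSC, and because mES replicate 1 was dark it did not enter the test. Pramel6, its close relative, was not above background on any array, with -7.45, -6.39 and -6.29 in mES and -8.09, -8.04 and -8.19 in EpiSC. Pramel48 followed the arrays of Pramel7, above background on mES replicates 2 and 3 only, with -6.26, -3.93 and -4.17 in mES and -6.52, -6.15 and -5.79 in EpiSC. In both Pramel7 and Pramel48, mES replicate 1 (ESF122) was like the EpiSC samples in falling below background. Oog2 and Oog3 were not above background on any array, Pramel1 was above it on mES replicate 2 only, and Pramel32 on mES replicate 1 and EpiSC replicates 1 and 2.

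The partners of Pramel7 differed by small amounts. Of 6 genes for the CUL2 ligase, Uhrf1 and Dnmt1, all tested, 3 were lower and 1 was higher, and their median log2 fold change was -0.46. The scaffold gene Cul2 gave -0.54 ± 0.15 (limma adjusted p = 0.0392), the adaptor gene Elob -0.95 ± 0.21 (adjusted p = 0.0199) and the maintenance methyltransferase gene Dnmt1 -0.60 ± 0.16 (adjusted p = 0.0358). The other adaptor gene, Eloc, rose by 0.64 ± 0.16 (adjusted p = 0.0296). Uhrf1 itself gave -0.38 ± 0.16 and did not pass (adjusted p = 0.122). Only Elob and Eloc passed when arrays were scaled by their medians, and quantile normalization lost Dnmt1.

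**Figure D3:**
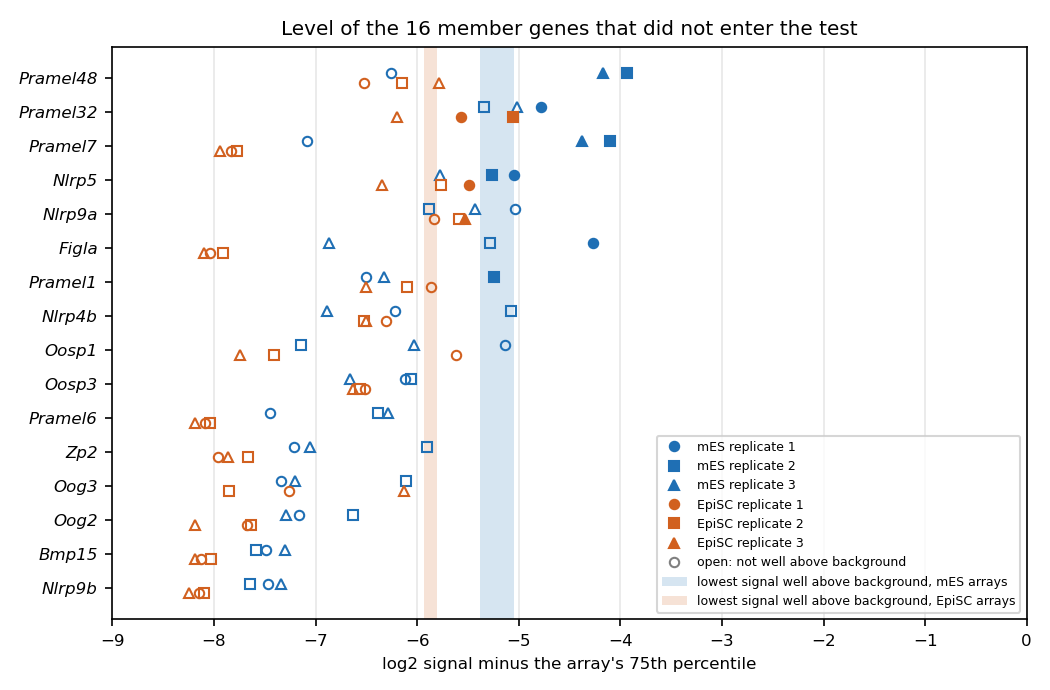
Level on each array of the 16 genes that did not enter the test (brighter probe of each gene), as log2 signal minus the array's 75th percentile (horizontal axis), with mES in blue, EpiSC in orange, open markers for arrays not well above background and shaded bands for the lowest signals well above background in each group. Filled markers are few and lie at or to the right of the bands, among them mES replicates 2 and 3 for Pramel7 at -4.10 and -4.38.

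The 5 Nlrp genes known mainly from immune and epithelial cells were all tested, and 1 was lower, beside 14.5% of all genes. So small a count does not set these genes apart from that share. Nlrp6, known from the intestinal lining, read -4.29, -4.12 and -2.61 in mES and -6.18, -5.74 and -7.57 in EpiSC, where no array was above background. The mES value of replicate 3 was the highest, and the gene was at least 4.48-fold lower (log2 fold change -2.82 ± 0.62, limma adjusted p = 0.0205). These values are those of the brighter probe. The other probe of Nlrp6 was not above background on any array, with -7.13, -6.24 and -6.00 in mES and -7.91, -7.76 and -7.80 in EpiSC. The call of Nlrp6 was lost in 3 of 19 alternative fits. Nlrp3 (listed as Cias1), the sensor of the best known inflammasome, read -2.97, -2.19 and -2.93 in mES and -2.06, -2.17 and -2.55 in EpiSC. These groups overlapped, and the log2 fold change was 0.43 ± 0.27 (adjusted p = 0.27).

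Nlrp12, known in mice as a brake on inflammatory signalling, read -4.74, -4.82 and -4.73 in mES and -5.40, -6.36 and -7.77 in EpiSC. All 3 mES arrays but 1 EpiSC array alone detected it, and its change of -1.74 ± 0.56 missed the threshold (limma adjusted p = 0.0632). The other probe of Nlrp12 was not above background on any array. Nlrp10 read -5.12, -3.81 and -5.56 in mES and -3.86, -4.09 and -3.96 in EpiSC by its brighter probe, and gave 0.86 ± 0.44 (adjusted p = 0.189) with mES replicate 2 above all EpiSC values. By the other probe of Nlrp10 the groups did not overlap, with 0 mES and 3 EpiSC arrays above background. That probe gave 0.79 (adjusted p = 0.192). Nlrp1a gave -0.45 ± 0.24 (adjusted p = 0.2). None of these 3 was called in either direction.

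Of 14 genes for inflammasome partners, 10 were tested, 1 was lower and 1 was higher, and the 10 had a median of -0.43 (log2 fold change). Pycard, which encodes the adaptor ASC that joins Nlrp sensors to caspase-1, fell 16.8-fold in EpiSC (-4.07 ± 0.33 on the log2 scale, limma adjusted p = 0.000842). Il18, a cytokine processed by caspase-1, rose by 1.78 ± 0.18 on the log2 scale (adjusted p = 0.00173). Casp1 gave -0.53 ± 0.28 (adjusted p = 0.195), and Il1b was not above background on any array. Markers of macrophages, the cells in which these genes are best known, were measured beside them. Of 10 such markers 9 were tested and 1 was lower (Cd68, 7.71-fold). Their summed level, in units of the array's 75th percentile signal, was 1.71 to 5.10 in mES and 0.952 to 3.65 in EpiSC. The sum leans on Lyz2, the brightest of these markers on every array but mES replicate 2 and EpiSC replicate 3. Lyz2 read 0.88, -1.82 and 1.79 in mES and 1.47, 0.63 and -1.86 in EpiSC. The leukocyte gene Ptprc was above background on 0 mES arrays and 1 EpiSC array.

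The cell state and feeder content of the cultures were read from marker lists. Of the naive ES markers 8 of 9 were lower in EpiSC and 0 were higher, of the epiblast markers 7 of 7 were higher, and of Pou5f1, Sox2 and Nanog 0 of 3 passed in either direction (1 of 3, Sox2, was lower with normexp background correction). Fibroblast markers, as carried by the feeders, were all measured, and 2 of 17 were higher in EpiSC (Acta2 and Tagln). Their summed level ranged from 31.3 to 133 in mES and from 69.9 to 177 in EpiSC, in the units above. Without the lowest array of each group (mES replicate 2 and EpiSC replicate 3), a choice made after seeing the data, 10 of the 12 genes stayed lower, with Gdf9 and Nlrp6 lost. In that fit 3.39% of all genes were lower. On the arrays at slide position 1 (replicate 3 of each group), the 12 genes differed by -11.30 to -1.42 on the log2 scale. Each of the 4 slides held 1 group only, and slide, LIF or FGF2 and cell type cannot be told apart.

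Most of the tested genes known from the 2-cell embryo or from germ cells were lower in EpiSC. Of 20 genes known from the 2-cell embryo, 10 matched a probe by symbol, 8 were tested, 6 were lower and 0 were higher, and the 8 had a median of -3.32 (log2 fold change). Zscan4c, which marks a transient 2-cell-like state in ES cultures, was 59.8-fold lower (log2 fold change -5.90 ± 0.56, limma adjusted p = 0.00142). Usp17lb was at least 16.3-fold lower (adjusted p = 0.0121) and Usp17la, a gene of the same deubiquitinase family, 19.9-fold lower (adjusted p = 0.00682). Zfp352 fell by 2.74 ± 0.76 (adjusted p = 0.0409), a call that quantile normalization lost. The summed level of the 8 genes was 12.8 to 29.6 in mES and 8.23 to 10.5 in EpiSC, where Eif1a, which did not pass, made up at least 93.2% of it. Without Eif1a the sum was 3.23 to 18.8 in mES and 0.475 to 0.564 in EpiSC. The 6 germ cell markers (Ddx4, Dazl, Mael, Stra8, Sycp3 and Piwil2) were all lower in EpiSC, with a median of -8.54, or -7.02 at their bounds and -4.74 with normexp background correction. Their summed level was 21.8 to 30.5 in mES and 0.0452 to 0.0743 in EpiSC. With normexp, which added an offset of 50 to each signal, the median of the 2-cell list was -2.40. The part of 2-cell-like or germ cell-like cells in the members' levels was not tested.

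**Figure D4:**
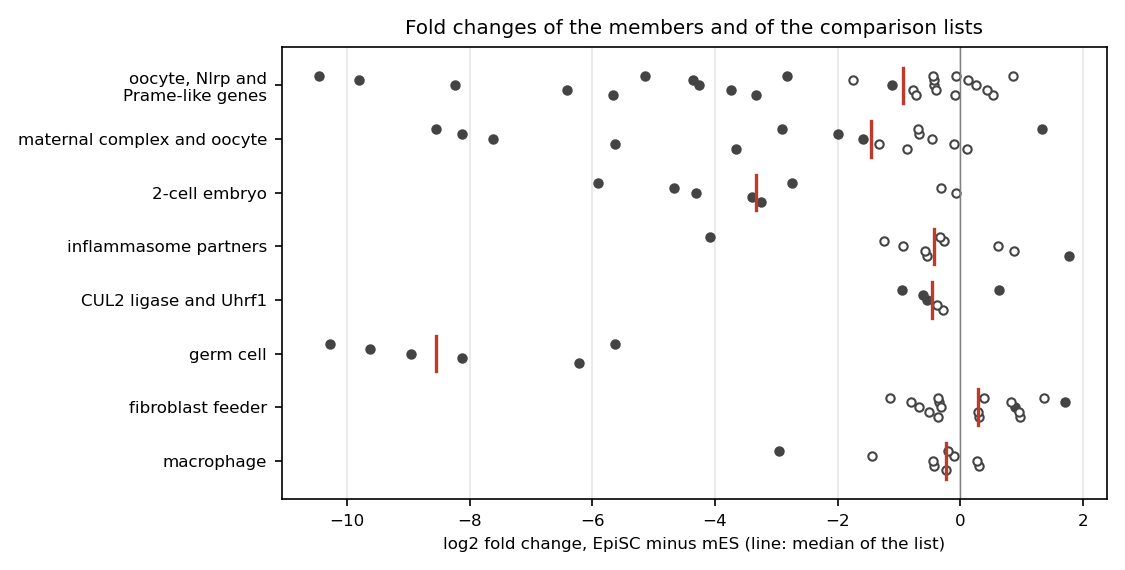
Log2 fold change, EpiSC minus mES (horizontal axis), of each tested gene of the oocyte, Nlrp and Prame-like set and of 7 comparison lists, with filled points for genes past the threshold and a red line at each median. The members' points spread from -10.45 to 0.86 around a median of -0.94, whereas the germ cell markers all lie at or below -5.63 and the fibroblast markers lie on both sides of 0.

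The letters around the gene starts were compared with those of all 32851 RefSeq promoters of the same length, for the 35 members with a match (39 promoters). The ratio of observed to expected CpG had a median of 0.188 in the members and 0.384 in all promoters. It was 0.196 in 10 of the genes lower in EpiSC, Gdf9 and Nlrp14 having no match. The median was 0.207 in 11 of those tested and not past the threshold and 0.118 in 14 of those not tested. These differences were not tested. Among the sequences shown, Ooep holds 15 CpG (ratio 0.602), Pramel13 7 (0.422), Zp3 7 (0.439), Nlrp2 3 (0.16) and Nlrp4f 2 (0.179). The E-box CACGTG, searched on both strands, was found in 1 of the 39 promoters, that of Zp3, where it starts 181 bases before the gene start, and in 7.15% of all promoters. The motif TCCCGC was found in 5 of 39 and in 20.0% of all. ATGCAAAT and TCAAGGTCA were found in 0 of 39, against 1.74% and 0.423% of all promoters.

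By chromosome, 13 of the 42 genes lie on chromosome 7, all of them Nlrp genes except Zp2, with 8 tested and 4 lower. Chromosome 4, with Pramel13, Pramel4, Oog2, Oog3 and Oog4, holds 9 members, of which 5 were tested and 2 were lower. Chromosome 5 holds 5, of which 4 were tested and 3 were lower (Zp3, Pramel37 and Pramel39). Over all genes tested, 14.5% were lower, and the share on each chromosome was not counted. All the lower genes on these chromosomes except Nlrp4c and Zp3 entered the test through the mES arrays alone.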

How the data were processed

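RNA of 3 mES and 3 EpiSC samples was extracted with TRIzol and labelled with Cy3, per the labels' protocols. The deposited scanner files hold linear spot intensities, made with Agilent Feature Extraction 9.1.3.1, per the file headers; 45018 spots were read per array. The authors' value table, also a deposited intensity, is the same signal within 0.00716 on the log2 scale, and 0 per-sample columns were left unused. Median signals were 74.6 to 126, 66.3% to 75.4% of 41174 probes were well above background, and 0 spots were saturated. The sources used here name no genome build for the probes.

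Control spots and flagged outliers (12 to 24 per array) were left out, spots of 1 probe were averaged, and the log2 of the deposited signals was reduced by each array's 75th percentile. Of the probes, 22951 were named through a RefSeq table (GRCm38.p6) and 18223 by the scanner files, whose names can be old; 45 of the 53 member probes were named by accession. A probe entered if all 3 arrays of 1 group or both called it well above background, with no more than 1 missing value per group, and the brightest entering probe stood for its gene. Groups were compared two-sided with limma 3.58.1 (R 4.3.3, lmFit and eBayes, no covariate), adjusted by Benjamini-Hochberg over 20689 genes, threshold 0.05. The scripts were tested on simulated data; tables and plots used Python 3.11.15, pandas 2.3.3 and matplotlib 3.10.9.

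The members and lists were chosen with earlier results of these data known. Named genes are the 12 largest changes per direction past the threshold, a fixed set of oocyte, Nlrp and Prame-like genes whatever their values, and, from the lists, up to 3 genes per direction and the first 3 of each. Alternatives were 3 scalings or background corrections, 2 filters, probe, missing-value and variance choices, slide and position, averaged EpiSC-7 arrays, the value table, leaving out each array, and 1 added after seeing the data.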

Additional observations from a re-analysis of the deposited data

How the results depend on the processing

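The 20 alternatives called 10 to 17 members lower in EpiSC, against 12, with 1 exception. Requiring all 6 arrays above background left 3 lower genes of 11 tested, beside 16.1% of all genes, because it removes genes that are dark in EpiSC. The share of all genes that was lower ran from 3.39% to 32.9% over the 20, against 14.5%. The count with 1 array left out was 11 to 15, beside 7.41% to 13.2% of all genes. The 15 arose without mES replicate 1 (9.11% of all genes), where Pramel7, Pramel48 and Pramel12 passed too. No filter gave 17, beside 21.3% of all genes, the added genes (Bmp15, Figla, Nlrp9b, Pramel6 and Pramel7) being dim. Slide as a random block gave 17 lower and 3 higher (H1f8, Nlrp10 and Nlrp3), beside 32.9% and 24.1% of all genes. Its fitted correlation was -0.68, which narrows the errors when each slide holds 1 group. The count of higher genes was 0 in all others, except 1 (Nlrp10) without mES replicate 2, so that it was 0 to 1 with 1 array left out. Without mES replicate 2, 8.74% of all genes were higher. Of 231 values of the 12 lower genes, 223 stayed past the threshold, 8 missed it and 0 turned sign. Those 8 were Gdf9 at slide position 4 only (adjusted p = 0.0974), without mES replicate 2 (0.0566), without EpiSC replicate 1 (0.0707) or 3 (0.0662) and without the arrays lowest in fibroblast markers (0.126), and Nlrp6 without EpiSC replicate 1 (0.0523) or 3 (0.0547) and without the low-fibroblast arrays (0.0797). Normexp background correction shrank 11 of the 12 folds by over 1.5 times, to log2 fold changes of -6.55 for Ooep, -6.17 for Pramel13, -4.35 for Nlrp4f and -0.921 for Pramel4, with all 12 past the threshold. The correction added an offset of 50 to each signal, where Ooep had signals of 12.6, 10.2 and 3.07 in EpiSC before it. The part of the offset in the shrinkage was not tested. For Ooep, Nlrp4f, Nlrp14, Pramel13, Nlrp6, Nlrp4a and Pramel4 the bounds rest on the processed signal and do not cover the background correction. Leaving out EpiSC replicate 3 moved Ooep to -9.16, and leaving out mES replicate 3 moved Zp3 to -4.94. Of 274 values of the 14 other genes, 16 passed (Nlrp12 in 5 of 19 fits, Nobox in 2) and 16 turned sign, all in 3 genes near 0. Nlrp9c gave 0.0787 with quantile normalization, 0.0261 with median scaling, 0.0752 with the slide block, 0.215 without mES replicate 2, 0.00156 without EpiSC replicate 3 and 0.289 without the low-fibroblast arrays, and spanned -0.294 to 0.215 with 1 array left out. Oog1 gave 0.0185, 0.00608 and 0.103 in the first 3 of these, and 0.0331, 0.0708, 0.0791 and 0.117 without mES replicate 1 or 2 or EpiSC replicate 1 or 2 (-0.473 to 0.117 with 1 array left out). Pramel27 gave -0.242 with normexp, -0.291 at position 4 only and -0.343 without mES replicate 3 (-0.343 to 0.633 with 1 array left out). No paired analysis was possible because the labels number no replicates, and the numbers used here only name the samples. Signals near background limit 16 genes that could not be tested, and 3 arrays per group limit small differences.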

Other observations

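Genes beside the 12 lower members were read from the RefSeq order of protein-coding genes on GRCm38.p6, taking 2 on each side. Of the neighbours that are no members, 20 were tested, 5 were lower in EpiSC and 1 was higher, against 14.5% and 11.8% of all genes. Dppa5a, a KH-domain gene of naive ES cells, lies next to Ooep on chromosome 9 and had a log2 fold change of -10.21 ± 0.26 (limma adjusted p = 1.63e-05). Cgas, on the other side of Ooep, gave -1.36 ± 0.43 and did not pass (adjusted p = 0.0594). Beside Nlrp4c, Zfp787 rose by 1.10 ± 0.17 (adjusted p = 0.00659). The other lower neighbours were Uqcrq beside Gdf9 (-1.03 ± 0.21, adjusted p = 0.0152), Zfp369 beside Nlrp4f (-0.94 ± 0.19, adjusted p = 0.015), Ifitm5 near Nlrp6 (-0.65 ± 0.18, adjusted p = 0.04) and AA792892 beside Pramel39 (-0.61 ± 0.17, adjusted p = 0.0416). These genes were named after their values were seen.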
